A study of Homo sapiens with 6 samples.

Results

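The genes described here encode the protein import machinery of mitochondria, the porin channels of the outer membrane and the carriers of the inner membrane. The rule that takes them uses the gene symbol alone and no expression value: every TOMM, TIMM and SLC25A gene and VDAC1, VDAC2 and VDAC3, which gave 75 of the 26902 rows of the deposited table. Their RNA was measured in HMCB, an established human melanoma cell line that carries the NRAS Q61K mutation, in 2 groups of 3 libraries. Cells of the siAHCYL1 group were transfected with an siRNA against AHCYL1, and cells of the siNC group with a control siRNA, both on the same NRAS-mutant background, with RNA taken after 3 days. The series asks how AHCYL1 promotes proliferation of NRAS-mutant melanoma cells. AHCYL1, also known as IRBIT, is a homolog of the enzyme that hydrolyses S-adenosylhomocysteine and is known to bind IP3 receptors, through which the endoplasmic reticulum releases calcium. The labels name 1 cell line, 1 AHCYL1 siRNA treatment and no rescue, so loss of AHCYL1 and any binding of the siRNA to other transcripts cannot be told apart.

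Nearly all mitochondrial proteins are made in the cytosol and enter through the TOM complex of the outer membrane, where receptors recognise the precursor and a pore lets it through. Precursors with a presequence pass on to the TIM23 complex of the inner membrane, while the carriers themselves are escorted across the intermembrane space by small TIM chaperones and inserted by the TIM22 complex. VDAC porins let metabolites, ATP and calcium cross the outer membrane, and the SLC25 carriers then exchange particular metabolites across the inner membrane. The import machinery, the channels and the carriers therefore stand in series, and the carriers are themselves cargo of the small TIM chaperones and of TIM22.

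Values are in TPM, an abundance unit corrected for transcript length and scaled to the same total in every library. The groups were compared on log2(TPM + 1) with limma, and a gene was called changed at a Benjamini-Hochberg adjusted p under 0.05 over all 13266 tested genes, which reached 1 TPM in 3 or more of the 6 libraries. Fold changes given as log2 are on that scale, siAHCYL1 over siNC, with the standard error (SE). TPM keep no sequencing depth, so the depth behind each value is unknown and no counting interval was computed. The replicates are labelled biological, but no separate cultures are named. The p-values therefore speak only of the spread among these 6 libraries, some of which may be technical. In bulk RNA, fewer cells of a type and less RNA per cell cannot be told apart.

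The siRNA target checked the labels: AHCYL1 had 13.5, 11.1 and 11.0 TPM in the siAHCYL1 libraries, against 150.0, 134 and 131 TPM in the siNC libraries (log2 fold change -3.44, adjusted p = 5.64e-08; exact permutation p = 0.1, the smallest that 3 libraries against 3 allow). Between 13072 and 13189 genes reached 1 TPM in the siAHCYL1 libraries, and between 13035 and 13171 in the siNC libraries. The lineage marker SOX10 averaged 1009 ± 16.9 TPM in siAHCYL1 and 1037 ± 12.3 TPM in siNC cells. The pigment gene TYR was at 0 in all 6 libraries. MITF averaged 9.72 TPM in siAHCYL1 and 11.0 TPM in siNC cells. DCT averaged 0.337 TPM in siAHCYL1 and 11.4 TPM in siNC cells, and MLANA averaged under 1 TPM in either group. Of the 6 tested genes of this melanocytic list DCT was lower and 3 were higher, S100B with 32.3, 28.6 and 26.1 TPM in siAHCYL1 and 10.2, 11.4 and 10.6 TPM in siNC libraries, TYRP1 at 3.76 TPM in siAHCYL1 and 1.59 TPM in siNC cells, and PMEL at 1.83 TPM in siAHCYL1 and 0.877 TPM in siNC cells. The summed levels of 22 markers of epithelium, fibroblasts, immune and blood cells and endothelium lay between 6.26 and 32.4 TPM per list in siAHCYL1, against 3.71 and 21.6 TPM in siNC libraries, and CDH1, KRT5, PDGFRA, CD3E, HBB and VWF were at 0 in every library. The fibroblast list, mostly LUM, summed to 29.5 ± 3.21 TPM in siAHCYL1 and 16.3 ± 1.43 TPM in siNC cells (SD, n = 3 each). Of the 2 genes of this list that were tested, 1 was higher (LUM) and 1 was lower. The immune and blood list, mostly PTPRC, summed to 8.90 ± 2.02 TPM in siAHCYL1 and 3.99 ± 0.25 TPM in siNC cells (SD, n = 3 each). Their part in the results below was not tested.

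Of the 75 genes, 66 were abundant enough to test, and 28 of these changed, 15 higher and 13 lower in siAHCYL1 cells. That is 42.4% of the tested members, while 51.6% of all tested genes changed, 30.4% higher and 21.2% lower, so the share of changed members was not above the share of all genes. The median log2 fold change was 0.065 over the members and 0.063 over all tested genes. The libraries of the groups did not overlap in 40 of the 66 tested members, a share near the 59.2% of all tested genes. The summed level of all 75 genes was 0.630 to 0.645% of TPM in the siAHCYL1 libraries and 0.629 to 0.633% in the siNC libraries. The module as a whole thus held nearly the same share of the transcriptome in both groups, and the differences lay between its members. Of the changed members 53.6% were higher, a share that was 42.4% under median-of-ratios scaling, 40.0% under quantile normalization and 42.4% with the trend over transcript length removed. Over all genes the same share was 58.9%, and 50.8%, 48.1% and 49.2% under these settings. Of the 28 changed members 20 were called in every one of the 15 other fits that tested them, and none of the 28 changed direction in any.

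The filter removed 9 members. SLC25A47 and SLC25A48 were listed at 0 in all 6 libraries. TOMM20L, SLC25A2, SLC25A18, SLC25A31, SLC25A34, SLC25A41 and SLC25A52 averaged under 1 TPM in both groups, among them SLC25A31, the ADP/ATP carrier known from testis.

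**Figure D1:**
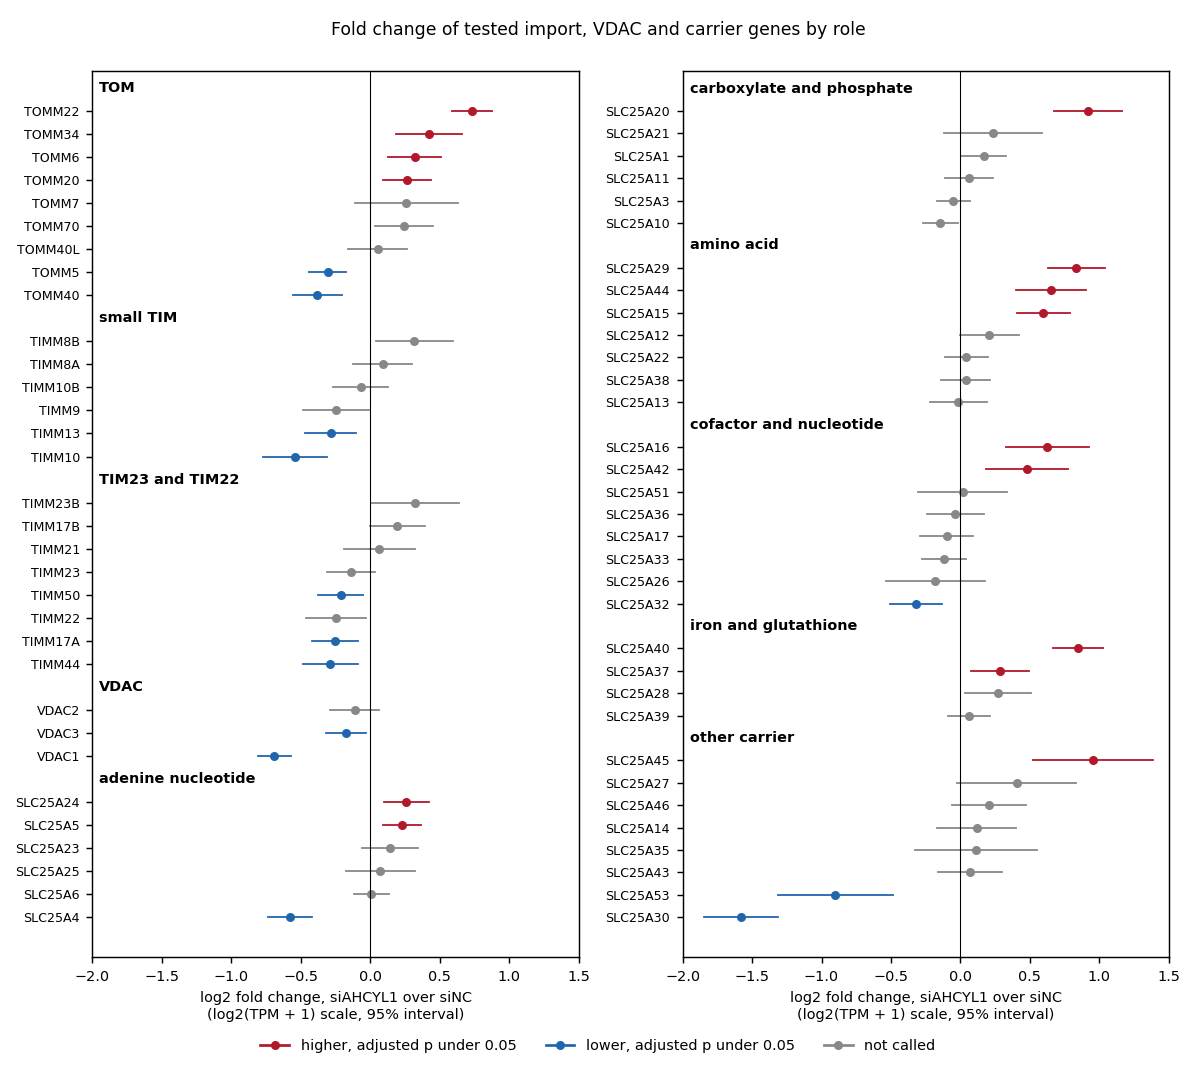
Log2 fold change (siAHCYL1 over siNC, on the log2(TPM + 1) scale) with its 95% interval for the tested genes reported here, grouped by role; red points were called higher in siAHCYL1 cells, blue points lower, and grey points were not called at an adjusted p under 0.05. TIM and VDAC genes lie left of 0 where called, amino acid and glutathione carriers lie right of 0 where called, and SLC25A30 has the largest fall at -1.58.

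The promoters of 4 changed members are shown first, to set beside their values below. SLC25A30, which moved most, had no RefSeq promoter, and VDAC1 and SLC25A45 have several starts, so they are not shown. RefSeq (GRCh38.p14) gave a promoter for 64 of the 75 genes, and each printed stretch is the 250 bases before the annotated start, 5′ to 3′ on the gene's strand, for the largest rise and the largest fall among import subunits and among carriers, taken from the members with a single RefSeq start that changed by at least 0.5 log2 units with a group mean of at least 5 TPM. In GENCODE v29 the start of each of these 4 genes lies inside the printed window. Capitals mark a match on either strand to 4 motifs of housekeeping and mitochondrial promoters, the ETS (GABP) core CCGGAAGT, the NRF1 core CGCATGCG, the E-box CACGTG and the CCAAT box, none of which overlap one another in these windows. The first is TOMM22 (chr22:38681707-38681956, plus strand), with no match.
TOMM22: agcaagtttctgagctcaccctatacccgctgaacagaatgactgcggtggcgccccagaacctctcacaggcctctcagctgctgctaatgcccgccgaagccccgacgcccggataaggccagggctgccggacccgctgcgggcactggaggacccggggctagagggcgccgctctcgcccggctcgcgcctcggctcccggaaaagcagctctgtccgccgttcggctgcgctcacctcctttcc
The second is TIMM10 (chr11:57530755-57531004, minus strand), whose ETS core starts 13 bases before the annotated start.
TIMM10: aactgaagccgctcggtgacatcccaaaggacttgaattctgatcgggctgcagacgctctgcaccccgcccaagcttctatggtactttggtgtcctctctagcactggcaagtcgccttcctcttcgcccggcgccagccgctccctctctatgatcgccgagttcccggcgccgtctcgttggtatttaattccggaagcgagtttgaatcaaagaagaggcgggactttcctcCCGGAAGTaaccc
The third is SLC25A20 (chr3:48898883-48899132, minus strand), with no match.
SLC25A20: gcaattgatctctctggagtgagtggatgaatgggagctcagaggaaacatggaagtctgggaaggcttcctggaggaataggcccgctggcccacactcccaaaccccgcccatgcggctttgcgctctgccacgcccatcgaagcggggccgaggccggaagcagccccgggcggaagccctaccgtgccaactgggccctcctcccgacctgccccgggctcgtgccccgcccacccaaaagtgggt
The last is SLC25A4 (chr4:185143016-185143265, plus strand), with a CCAAT box 88 bases before the annotated start.
SLC25A4: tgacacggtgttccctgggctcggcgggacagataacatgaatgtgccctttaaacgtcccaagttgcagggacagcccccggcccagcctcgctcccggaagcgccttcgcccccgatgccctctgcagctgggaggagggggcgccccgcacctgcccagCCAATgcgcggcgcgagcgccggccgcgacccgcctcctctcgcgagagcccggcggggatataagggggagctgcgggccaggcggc

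Across the 64 members with a promoter, the ETS core was found in 9 (14.1%), against 4.13% of all 27305 genes with a promoter of the same length. That wider set was not limited to genes expressed in these cells, while most members were. The E-box was found in 10 members (15.6%), against 7.73% of all genes, and the NRF1 core in 2 (3.12%), against 2.14%. A CCAAT box was found in 29 members (45.3%), against 37% of all genes. It was in 4 of 13 members that were higher in siAHCYL1 cells (30.8%), in 7 of 9 that were lower (77.8%) and in 18 of 42 that were not called or not tested (42.9%). Members without a promoter are left out, so these are 13 of the 15 higher members and 9 of the 13 lower ones. A gene with several annotated starts was counted if any of them had a match. VDAC1, among the lower members, counts only through the start at chr5:134071012-134071261, outside the gene positions given below. SLC25A45, among the higher ones, also counts through only 1 of its starts. The ETS core was in 3 of the 13 higher members and in 1 of the 9 lower ones. These are letter matches in short windows, given as a description and not tested.

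Among the TOM genes, 2 of the 3 receptors were higher and the pore was lower in siAHCYL1 cells. Of 9 tested TOM genes 4 were higher (TOMM22, TOMM34, TOMM6 and TOMM20) and 2 were lower (TOMM40 and TOMM5). The share called was 66.7%, beside 51.6% of all tested genes. The TOM genes summed to 1349, 1381 and 1329.8 TPM in siAHCYL1, against 1198, 1237 and 1272 TPM in siNC libraries.

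TOMM22 (chromosome 22, positions 38681948 to 38685421, plus strand of GRCh38), the central receptor that also holds the pore complex together, had the largest change of the TOM genes. It had 263, 275 and 256 TPM in the siAHCYL1 libraries, against 164, 149 and 164 TPM in the siNC libraries. Every siAHCYL1 library lay above every siNC library, by more than the spread within either group, with a log2 fold change of 0.73 (SE 0.064, adjusted p = 2.09e-05). TOMM20, the receptor for presequences, had 243 ± 18.3 TPM in siAHCYL1 and 202 ± 14.5 TPM in siNC cells (SD, n = 3 each; 0.26, adjusted p = 0.0167). The TOMM20 call was lost without siNC replicate 2 (adjusted p = 0.0724) or siNC replicate 3 (adjusted p = 0.0519). TOMM70, the receptor that takes carrier precursors from cytosolic chaperones, had 61.8 ± 6.97 TPM in siAHCYL1 and 51.9 ± 3.05 TPM in siNC cells, and it missed the threshold (0.24, adjusted p = 0.0511). It passed without siAHCYL1 replicate 3 (adjusted p = 0.0307). Together the 3 receptors summed to 569.3 ± 28.2 TPM in siAHCYL1 and 412.6 ± 19.9 TPM in siNC cells, and TOMM22 made up 46.6 ± 2.11% of that sum in siAHCYL1 and 38.5 ± 1.56% in siNC cells (SD, n = 3 each).

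TOMM40, the beta-barrel pore through which nearly all precursors enter, was lower, with 155, 181 and 185 TPM in siAHCYL1, against 216, 226 and 235 TPM in siNC libraries. The highest siAHCYL1 library lay below the lowest siNC library, and the log2 fold change was -0.38 (SE 0.078, adjusted p = 0.00296). Its paralog TOMM40L, at 17.6 TPM in siAHCYL1 and 16.9 TPM in siNC cells, was not called (0.053, adjusted p = 0.667). TOMM5, a small subunit that is associated with the pore, was the most abundant TOM gene over the 6 libraries, with 236, 241 and 224 TPM in siAHCYL1, against 284, 282 and 302 TPM in siNC libraries. Its groups did not overlap either (-0.31, SE 0.060, adjusted p = 0.00224). In the GENCODE v29 annotation TOMM5 shares 83.1% of its 50-base stretches with other genes, mostly a readthrough model. Reads from those stretches cannot be assigned to TOMM5 alone.

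The other small subunits did not follow TOMM5. TOMM6 had 155, 158 and 154 TPM in siAHCYL1, against 109, 136 and 130.3 TPM in siNC libraries, with no overlap (0.32, adjusted p = 0.0109). TOMM7 had 124, 159 and 158 TPM in siAHCYL1, against 91.3, 137 and 144 TPM in siNC libraries, and its groups overlapped (0.26, adjusted p = 0.217). For both genes siNC replicate 1 was the lowest library, and TOMM7 was also low in siAHCYL1 replicate 1. All of TOMM6 lies within a longer annotated gene, AL365205.1, so reads of the pair cannot be told apart. TOMM34, a cytosolic cochaperone of import, was higher, at 56.5 ± 6.30 TPM in siAHCYL1 and 41.8 ± 4.49 TPM in siNC cells (SD, n = 3 each; 0.42, adjusted p = 0.00808). It overlaps PABPC1L on the other strand, which was higher too (0.46) in these libraries without strand information. The longest protein-coding TOMM34 transcript shares 0% of its 50-base stretches with other annotated genes.

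Genes for the small TIM chaperones of the intermembrane space were either lower or not called. None of the 6 was called higher and 2 were lower, TIMM10 and TIMM13 (33.3% called, beside 51.6% of all tested genes). The 6 genes summed to 299, 325 and 329 TPM in siAHCYL1, against 370.1, 376 and 393 TPM in siNC libraries. TIMM10 (chromosome 11, positions 57528463 to 57530803, minus strand of GRCh38) pairs with TIMM9 to escort carrier precursors. It had 102, 126 and 138 TPM in the siAHCYL1 libraries, against 179, 169 and 182 TPM in the siNC libraries. All 3 siAHCYL1 libraries lay below the siNC libraries, replicate 1 by the widest margin, and the siNC libraries lay close together. The log2 fold change was -0.54 (SE 0.103, adjusted p = 0.00203), and it was -0.41 without replicate 1 of both groups, a setting chosen after seeing the data.

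TIMM9, the partner of TIMM10, had 23.0, 21.6 and 18.8 TPM in siAHCYL1, against 23.2, 27.7 and 24.8 TPM in siNC libraries, which do not overlap, and it was not called (-0.25, adjusted p = 0.0757). It passed without siAHCYL1 replicate 1 (adjusted p = 0.0407) and under median-of-ratios scaling (adjusted p = 0.0202). TIMM9 overlaps KIAA0586 on the other strand, which was higher (16.3 TPM in siAHCYL1 and 8.44 TPM in siNC cells), so part of the TIMM9 value may come from it. TIMM13, of the second chaperone pair, was lower, at 66.7 ± 5.93 TPM in siAHCYL1 and 81.4 ± 4.07 TPM in siNC cells (SD, n = 3 each; -0.29, adjusted p = 0.0161), a call lost without siNC replicate 3 (adjusted p = 0.0535). Its partner TIMM8A, whose loss causes deafness-dystonia syndrome, was not called (0.089, adjusted p = 0.453). TIMM8B had 60.5, 58.0 and 53.1 TPM in siAHCYL1, against 37.1, 48.9 and 52.3 TPM in siNC libraries, and was not called (0.32, adjusted p = 0.0528), but passed without siNC replicate 3 (adjusted p = 0.0211). TIMM10B, the small TIM bound to the TIM22 complex, was not called (-0.068, adjusted p = 0.544).

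**Figure D2:**
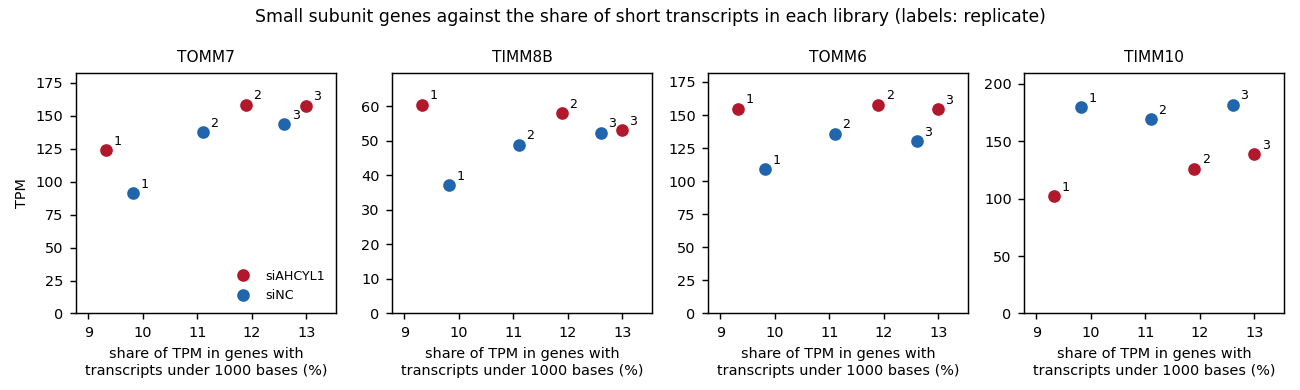
TPM of 4 small subunit genes in each library against the share of that library's TPM held by genes whose longest transcript is under 1000 bases; red points are siAHCYL1 libraries, blue points siNC libraries, and the numbers are replicates. Replicate 1 of each group has the lowest share (9.33% in siAHCYL1 and 9.82% in siNC), TOMM7 and TOMM6 are lowest in siNC replicate 1, and TIMM10 lies lower in siAHCYL1 than in siNC libraries at every share.

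Some small subunits have short transcripts, and the share of TPM in genes with transcripts under 1000 bases differed between libraries. It was 9.33, 11.9 and 13.0% in siAHCYL1 replicates 1, 2 and 3, against 9.82, 11.1 and 12.6% in siNC replicates 1, 2 and 3. The share thus differed more between replicates of a group than between groups. Of the 75 genes 4 have no annotated transcript of that length or more, TOMM6, TOMM7, TIMM10 and the untested TOMM20L, while the longest annotated TOMM5 transcript is longer. With replicate 1 of both groups left out TOMM7 passed the test (0.17, adjusted p = 0.0308).

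In the inner membrane, no TIMM gene of the TIM23 and TIM22 complexes was called higher. AGK, a TIM22 subunit listed with the partners below, was higher (0.24). Lower calls came in 3 of the 8 TIMM genes (37.5%, beside 51.6% of all tested genes), with small changes. Their summed level was 437, 495.0 and 469.6 TPM in siAHCYL1, against 528, 505 and 516 TPM in siNC libraries, and the groups did not overlap in 7 of the 8 genes, beside 59.2% of all tested genes. Of these 7, TIMM17B and TIMM23B lay higher in siAHCYL1 libraries and the other 5 lower. TIMM17A, a core subunit of TIM23 and the most abundant gene of the class, had 113, 132 and 131 TPM in siAHCYL1, against 152, 146 and 150.4 TPM in siNC libraries. Its siAHCYL1 libraries all lay below its siNC libraries (-0.26, SE 0.074, adjusted p = 0.017), and the difference was -0.17 without replicate 1 of both groups. TIMM17B, the alternative subunit, had 55.5, 64.6 and 53.9 TPM in siAHCYL1, against 48.0, 49.6 and 53.8 TPM in siNC libraries, and was not called (0.19, adjusted p = 0.092). TIMM17A made up 68.3 ± 2.22% of the pair in siAHCYL1 and 74.8 ± 1.18% in siNC cells (SD, n = 3 each).

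TIMM44, which anchors the import motor, had 56.7 ± 4.18 TPM in siAHCYL1 and 69.5 ± 6.67 TPM in siNC cells (SD, n = 3 each; -0.29, adjusted p = 0.0224). TIMM50, the receptor of TIM23 for incoming presequences, had 37.2 ± 1.34 TPM in siAHCYL1 and 43.3 ± 1.61 TPM in siNC cells (-0.21, adjusted p = 0.0342). Neither call held in every fit with 1 library left out. The TIMM44 call was lost without siAHCYL1 replicate 1 or 2 or siNC replicate 1 (adjusted p = 0.0577, 0.0707 and 0.069). The TIMM50 call was lost without siAHCYL1 replicate 1 or 2 or siNC replicate 1 or 2 (adjusted p between 0.0558 and 0.123). TIMM22, the channel that inserts the carriers, missed the threshold (-0.25, adjusted p = 0.0581), and passed without siAHCYL1 replicate 2 (-0.34, adjusted p = 0.02). TIMM23, the channel of the presequence route, was not called (-0.14, adjusted p = 0.161), nor was its near copy TIMM23B (0.32, adjusted p = 0.0831), with which it shares 17% of its 50-base stretches. TIMM21, which links TIM23 to TOM, was not called (0.066, adjusted p = 0.654).

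Of the 3 porins, VDAC1 and VDAC3 were lower and VDAC2 was not called (66.7% called, beside 51.6% of all tested genes). VDAC1 carried most of the difference. VDAC1 (chromosome 5, positions 133971915 to 134005133, minus strand of GRCh38), the main outer membrane channel for ATP and metabolites and a known contact site partner of IP3 receptors, had 293, 305 and 301 TPM in the siAHCYL1 libraries, against 484, 478 and 490.5 TPM in the siNC libraries. The libraries of each group lay close together and the groups lay far apart. The siAHCYL1 level was 61.9% of the siNC level (log2 fold change -0.69, SE 0.052, 95% interval -0.81 to -0.57, adjusted p = 9.47e-06). It was lower by 0.67 to 0.76 log2 units in all 15 other fits. VDAC1 shares 19.9% of its 50-base stretches with other genes, the largest part with the pseudogene VDAC1P1.

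VDAC3 had 189, 182 and 193 TPM in siAHCYL1, against 227, 206 and 205 TPM in siNC libraries, a small difference without overlap (-0.18, adjusted p = 0.0429). The VDAC3 call was lost with any single library left out (adjusted p between 0.0518 and 0.16). VDAC2, which is known for holding the apoptosis effector BAK at the outer membrane, had 150.4, 133 and 138 TPM in siAHCYL1, against 163, 155 and 138 TPM in siNC libraries, with overlapping groups (-0.11, 95% interval -0.29 to 0.065, adjusted p = 0.258). Other annotated genes share 48.8% of its 50-base stretches, mostly the pseudogene AC007318.1. The 3 porins summed to 632.4, 620.0 and 632.0 TPM in siAHCYL1, against 874.1, 838.8 and 833.8 TPM in siNC libraries. VDAC1 made up 47.7 ± 1.45% of that sum in siAHCYL1 and 57.1 ± 1.71% in siNC cells (SD, n = 3 each).

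**Figure D3:**
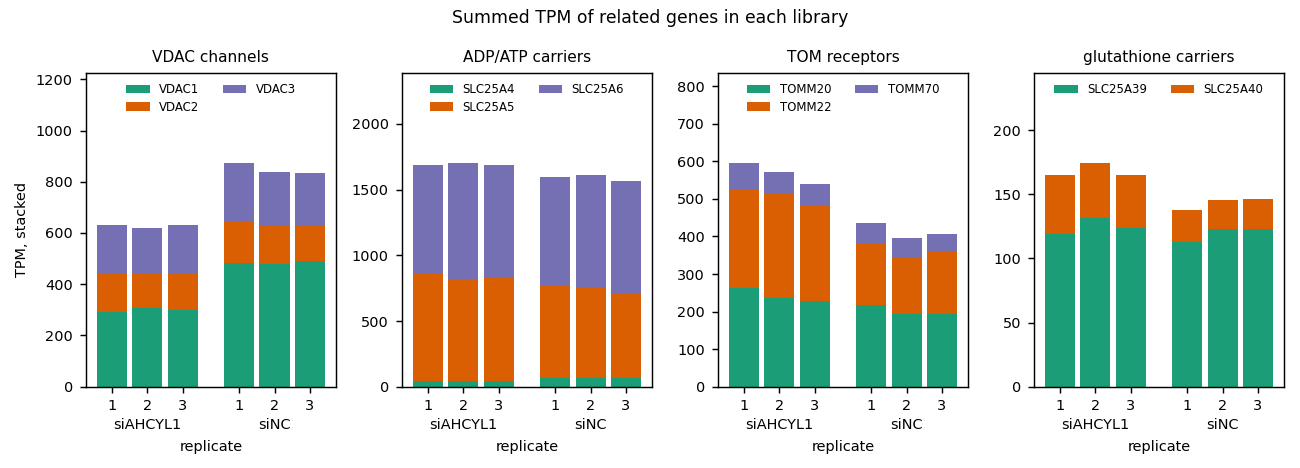
Stacked TPM of related genes in each of the 6 libraries, siAHCYL1 replicates 1 to 3 left of siNC replicates 1 to 3; each panel has its own axis from 0. The porin stack is lower in every siAHCYL1 library (620.0 to 632.4 TPM, against 833.8 to 874.1 TPM in siNC), mainly through VDAC1, the TOM receptor stack is higher through TOMM22 and TOMM20, and the glutathione carrier stack is higher through SLC25A40.

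The ADP/ATP carriers, which hand matrix ATP to the cytosol, moved in different directions by isoform. SLC25A4 (ANT1; chromosome 4, positions 185143241 to 185150382, plus strand of GRCh38), the isoform of heart and muscle, had 41.7, 45.8 and 44.2 TPM in the siAHCYL1 libraries, against 63.7, 66.6 and 67.7 TPM in the siNC libraries. No siAHCYL1 library came near the siNC range (-0.58, SE 0.070, adjusted p = 0.000144). SLC25A5 (ANT2), the isoform of proliferating cells, was higher, with 819, 775 and 779.6 TPM in siAHCYL1, against 706, 683 and 637 TPM in siNC libraries (0.23, adjusted p = 0.0104). This call was lost with the trend over transcript length removed (0.15, adjusted p = 0.0761). SLC25A6 (ANT3), the most abundant of all 75 genes, had 823, 884 and 864 TPM in siAHCYL1, against 829, 864 and 863 TPM in siNC libraries, which overlap throughout (0.0079, 95% interval -0.12 to 0.13, adjusted p = 0.915). These 3 isoforms together summed to 1692.0 ± 10.9 TPM in siAHCYL1 and 1593.3 ± 23.5 TPM in siNC cells, and SLC25A4 made up 2.60 ± 0.107% of that in siAHCYL1 and 4.14 ± 0.170% in siNC cells (SD, n = 3 each). The muscle isoform was thus a minor part of this family in both groups.

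The carriers that exchange ATP-Mg for phosphate and sense calcium on their outer side gave 1 call. SLC25A24 had 107 ± 5.25 TPM in siAHCYL1 and 89.1 ± 5.72 TPM in siNC cells (SD, n = 3 each; 0.26, adjusted p = 0.0137), a call lost without siNC replicate 3 (adjusted p = 0.0515). SLC25A23 (0.14, adjusted p = 0.217) and SLC25A25 (0.073, adjusted p = 0.606) were not called. The calcium-sensing aspartate/glutamate carriers, which feed cytosolic reducing equivalents to mitochondria, were not called either. SLC25A12 had 24.8 TPM in siAHCYL1 and 21.3 TPM in siNC cells (0.21, adjusted p = 0.0871), and SLC25A13 had 47.8 TPM in siAHCYL1 and 48.2 TPM in siNC cells (-0.016, adjusted p = 0.899). Of the 5 tested carriers with a calcium-sensing domain, SLC25A24 alone passed.

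Among the carriers of carboxylates and phosphate, only SLC25A20 changed (16.7% called, beside 51.6% of all tested genes). SLC25A20 (chromosome 3, positions 48856931 to 48898993, minus strand of GRCh38), the carnitine/acylcarnitine carrier that brings fatty acids in for oxidation, had 25.5, 32.0 and 26.8 TPM in the siAHCYL1 libraries, against 13.6, 15.5 and 13.9 TPM in the siNC libraries. The lowest siAHCYL1 library lay well above the highest siNC library, and the level was 1.96-fold that of siNC cells (0.92, SE 0.108, adjusted p = 0.000115). SLC25A3, the phosphate carrier and the most abundant of the class, had 390.3, 395 and 404 TPM in siAHCYL1, against 423, 405 and 407 TPM in siNC libraries (-0.052, 95% interval -0.17 to 0.067, adjusted p = 0.438). Its groups did not overlap, and the difference did not pass the test.

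The carriers around the citric acid cycle were not called. SLC25A1, which exports citrate for lipid synthesis, had 101 TPM in siAHCYL1 and 89.9 TPM in siNC cells (0.17, adjusted p = 0.0771), and passed without siAHCYL1 replicate 1 (0.22, adjusted p = 0.0216). SLC25A10, the dicarboxylate carrier, had 122 TPM in siAHCYL1 and 134 TPM in siNC cells (-0.14, adjusted p = 0.0603). It passed under both other scalings and with no filter, and shares 59.3% of its 50-base stretches with a readthrough model. SLC25A11, the oxoglutarate/malate carrier of the malate-aspartate shuttle, was not called (0.064, adjusted p = 0.512), and neither was the oxoadipate carrier SLC25A21 (0.24, adjusted p = 0.236).

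Amino acid carriers that changed were all higher: 3 of 7 tested rose and none fell. The share called was 42.9%, not above the 51.6% of all tested genes, of which 30.4% were higher. Their summed level was 452, 487 and 468 TPM in siAHCYL1, against 333, 333 and 336 TPM in siNC libraries. SLC25A29 (chromosome 14, positions 100291111 to 100306547, minus strand of GRCh38), a carrier of arginine, lysine and other basic amino acids, had 203, 248 and 242 TPM in siAHCYL1, against 119, 129 and 139 TPM in siNC libraries, and gave most of that difference. All siAHCYL1 libraries lay above the siNC range (0.83, SE 0.090, adjusted p = 7.15e-05). Of its 50-base stretches 12% are shared, mostly with a noncoding RNA gene, AL157871.1.

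SLC25A15, the ornithine carrier of the urea cycle, had 32.6, 29.4 and 28.8 TPM in siAHCYL1, against 20.2, 19.6 and 19.1 TPM in siNC libraries. The spread within each group was small beside the gap between them (0.60, SE 0.085, adjusted p = 0.00036). SLC25A44, the carrier of branched-chain amino acids known from brown fat, had 47.0, 44.1 and 43.3 TPM in siAHCYL1, against 33.5, 27.4 and 24.2 TPM in siNC libraries. Its siNC libraries spread more than its siAHCYL1 libraries, without reaching them (0.65, SE 0.113, adjusted p = 0.00116). The glutamate carrier SLC25A22 (52.8 TPM in siAHCYL1 and 51.3 TPM in siNC cells, 0.043, adjusted p = 0.623) and the glycine carrier of heme synthesis SLC25A38 (36.5 TPM in siAHCYL1 and 35.5 TPM in siNC cells, 0.039, adjusted p = 0.699) were not called.

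**Figure D4:**
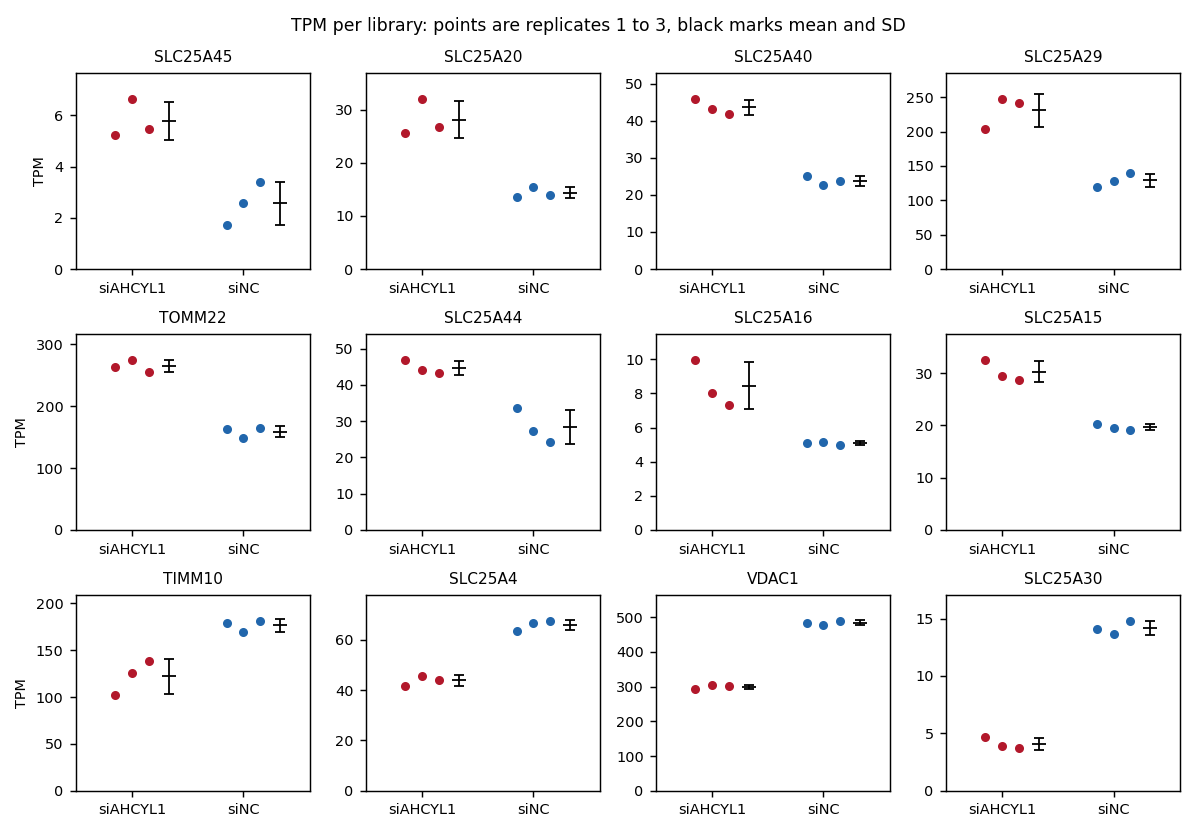
TPM in each library for the 12 members that changed by at least 0.5 log2 units with a group mean of at least 5 TPM, ordered from the largest rise to the largest fall; red points are the 3 siAHCYL1 libraries, blue points the 3 siNC libraries, and black marks show the mean and SD of each group on axes that start at 0. The groups do not overlap in any of the 12 panels, which were chosen by their call and size, so this adds no separate support. Over all tested genes 59.2% did not overlap.

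Of the carriers of cofactors and nucleotides, 2 were higher, 1 was lower and 6 were not called. That is 33.3% called, beside 51.6% of all tested genes. SLC25A16, which is linked to mitochondrial coenzyme A, had 9.98, 8.02 and 7.35 TPM in siAHCYL1, against 5.11, 5.18 and 4.97 TPM in siNC libraries. The siNC libraries were nearly equal and the siAHCYL1 libraries more spread, all above them (0.63, SE 0.133, adjusted p = 0.00364). SLC25A42, the coenzyme A carrier, was higher as well, at 9.00 ± 0.441 TPM in siAHCYL1 and 6.20 ± 0.949 TPM in siNC cells (SD, n = 3 each; 0.48, adjusted p = 0.0125). Both genes thus passed the test at levels under 10 TPM.

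SLC25A32, the folate and FAD carrier, was lower, at 48.7 ± 3.10 TPM in siAHCYL1 and 61.1 ± 4.59 TPM in siNC cells (SD, n = 3 each; -0.32, adjusted p = 0.00964). Other annotated genes share 97.5% of its 50-base stretches, and DCAF13 on the other strand was also lower (94.3 TPM in siAHCYL1 and 128 TPM in siNC cells), so its value is uncertain. SLC25A33, a pyrimidine nucleotide carrier and the most abundant of the class over the 6 libraries, had 54.6, 55.8 and 54.1 TPM in siAHCYL1, against 58.9, 63.8 and 56.5 TPM in siNC libraries. Its groups did not overlap and it was not called (-0.12, adjusted p = 0.191), but it passed under both other scalings (adjusted p = 0.0453 and 0.0203). Its relative SLC25A36 was not called (-0.037, adjusted p = 0.754).

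SLC25A26, the carrier of S-adenosylmethionine, supplies the methyl donor whose product the AHCY enzyme family hydrolyses. It had 8.88, 9.66 and 9.51 TPM in siAHCYL1, against 12.1, 8.03 and 12.7 TPM in siNC libraries. The groups overlapped, and siNC replicate 2 was the lowest library of all (-0.18, adjusted p = 0.365), and without that library the gene passed (-0.37, adjusted p = 0.0379). LRIG1, which overlaps SLC25A26 on the other strand and shares 3.12% of its 50-base stretches, was lower (7.04 TPM in siAHCYL1 and 14.5 TPM in siNC cells). The peroxisomal cofactor carrier SLC25A17 (-0.10, adjusted p = 0.361) and the NAD carrier SLC25A51 (0.017, adjusted p = 0.928) were not called.

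Of the 4 iron and glutathione carriers 2 were higher and none was lower, a share near the 51.6% of all tested genes that were called. SLC25A39 and SLC25A40 are close relatives that bring glutathione into mitochondria, and they did not move together. SLC25A40 (chromosome 7, positions 87833568 to 87876357, minus strand of GRCh38) had 46.0, 43.1 and 41.8 TPM in the siAHCYL1 libraries, against 25.1, 22.6 and 23.7 TPM in the siNC libraries. The groups lay far apart relative to their spread (0.85, SE 0.080, adjusted p = 3.29e-05). SLC25A39, the more abundant of the pair, had 119, 131 and 124 TPM in siAHCYL1, against 113, 123 and 123 TPM in siNC libraries, with overlap (0.059, 95% interval -0.093 to 0.21, adjusted p = 0.491). The pair summed to 168.2 ± 5.5 TPM in siAHCYL1 and 143.3 ± 4.6 TPM in siNC cells, and SLC25A40 made up 26.0 ± 1.72% of it in siAHCYL1 and 16.6 ± 1.38% in siNC cells (SD, n = 3 each). DBF4 overlaps SLC25A40 on the other strand and was lower (31.8 TPM in siAHCYL1 and 46.0 TPM in siNC cells), opposite to SLC25A40.

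The mitoferrins import iron for heme and iron-sulfur clusters. SLC25A37 (mitoferrin-1) had 19.3 ± 1.23 TPM in siAHCYL1 and 15.6 ± 0.661 TPM in siNC cells (SD, n = 3 each; 0.28, adjusted p = 0.0266). The call was lost without siAHCYL1 replicate 2 or siNC replicate 1 or 2 (adjusted p = 0.116, 0.0746 and 0.0696) and under both other scalings (adjusted p = 0.0545 and 0.0969). SLC25A28 (mitoferrin-2) had 21.1 ± 2.15 TPM in siAHCYL1 and 17.3 ± 1.42 TPM in siNC cells and was not called (0.27, adjusted p = 0.0553), but it passed without siAHCYL1 replicate 1 (adjusted p = 0.0188) or siNC replicate 3 (adjusted p = 0.042). The mitoferrins together summed to 40.4 ± 2.9 TPM in siAHCYL1 and 32.9 ± 2.0 TPM in siNC cells, with near equal parts in both groups.

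Among the remaining carriers, many of them without a settled substrate, 1 of 8 tested was higher and 2 were lower. That is 37.5% called, beside 51.6% of all tested genes. SLC25A30 (chromosome 13, positions 45393316 to 45418455, minus strand of GRCh38), known as the kidney mitochondrial carrier and related to the uncoupling proteins, had the largest change of all tested members. It had 4.69, 3.88 and 3.72 TPM in the siAHCYL1 libraries, against 14.1, 13.7 and 14.8 TPM in the siNC libraries. Its level in siAHCYL1 cells was 28.9% of that in siNC cells, with narrow spread in both groups (-1.58, SE 0.118, 95% interval -1.85 to -1.31, adjusted p = 8.72e-06). TPT1-AS1, which overlaps SLC25A30 on the other strand, was higher (16.1 TPM in siAHCYL1 and 12.0 TPM in siNC cells), opposite to it. SLC25A14, its closest relative among the members and also known as UCP5, was not called (13.3 TPM in siAHCYL1 and 12.3 TPM in siNC cells, 0.12, adjusted p = 0.465).

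SLC25A53 was the other carrier that fell, with 1.08, 1.42 and 0.730 TPM in siAHCYL1, against 3.22, 2.94 and 2.41 TPM in siNC libraries (-0.90, SE 0.184, adjusted p = 0.00296). At levels this low the pseudocount shrinks the fold, and with a pseudocount of 0.1 it was -1.36. SLC25A45 was higher, with 5.25, 6.65 and 5.46 TPM in siAHCYL1, against 1.71, 2.56 and 3.41 TPM in siNC libraries. It was 2.26-fold its siNC level, the largest rise among the members, although its siNC libraries differed among themselves (0.95, SE 0.192, adjusted p = 0.00269). SLC25A46, an outer membrane protein of mitochondrial shape rather than a transporter, was the most abundant of this class, with 38.1, 27.0 and 31.6 TPM in siAHCYL1, against 28.9, 27.8 and 26.3 TPM in siNC libraries. Its groups overlapped (0.20, adjusted p = 0.181), and it passed without siAHCYL1 replicate 2, its lowest siAHCYL1 library (0.32, adjusted p = 0.048). SLC25A27, also called UCP4 (0.40, adjusted p = 0.106), SLC25A35 (0.11, adjusted p = 0.657) and SLC25A43 (0.068, adjusted p = 0.609) were not called.

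The calls were also counted by family, with no test of a difference between families. Of 23 tested TOM and TIM genes 4 were higher and 7 were lower, and all 5 calls among the 14 TIM genes were falls. Of 40 tested SLC25 carriers 11 were higher and 4 were lower, beside 30.4% higher and 21.2% lower over all tested genes. With quantile normalization the carriers had 10 rises and 8 falls, with median-of-ratios scaling 10 rises and 7 falls, and with the length trend removed 9 rises and 7 falls. The TIM genes had no rise and 8, 7 and 8 falls in these fits. They had 1 rise with the filter at 5 TPM (5 falls), the replicate block (6 falls) and without siNC replicate 3 (4 falls). Without siNC replicate 1 they had 3 falls and no rise. The median log2 fold change was -0.17 over the TIM genes and 0.092 over the carriers, beside 0.063 over all genes. The summed level of the TIM genes was 736.0, 819.6 and 799.0 TPM in siAHCYL1, against 898.2, 881.0 and 909.2 TPM in siNC libraries. That of the carriers was 3581, 3634 and 3588 TPM in siAHCYL1, against 3364, 3335 and 3290.4 TPM in siNC libraries. Neither sum overlapped between groups, and as sums of chosen genes they carry no test.

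Genes that work beside the import complexes were changed in both directions. Of 20 tested partners 4 were higher and 4 were lower (40.0%, beside 51.6% of all tested genes). The falls were in 2 of the 3 metaxins, outer membrane proteins of beta-barrel assembly, and in enzymes of import. MTX1 had 62.4, 62.6 and 68.0 TPM in siAHCYL1, against 78.8, 96.4 and 86.3 TPM in siNC libraries (-0.43, adjusted p = 0.00255), and MTX3 was lower too (-0.44, adjusted p = 0.00646), while MTX2 was not called (0.072, adjusted p = 0.461). GFER, the oxidase that serves the disulfide relay of the intermembrane space, fell (-0.29, adjusted p = 0.00718), as did MIPEP, a peptidase that trims imported precursors (-0.38, adjusted p = 0.0118). The 4 rises, named after their values were seen, were the inner membrane peptidase subunits IMMP1L (0.53) and IMMP2L (0.29), AGK, a subunit of the human TIM22 complex (0.24), and the peptidase XPNPEP3 (0.34). HSPA9, the chaperone of the import motor, had 285 TPM in siAHCYL1 and 311 TPM in siNC cells and was not called (-0.13, adjusted p = 0.234). The number of partners called was 5 without siAHCYL1 replicate 2 or siNC replicate 3, and 4 without replicate 1 of both groups.

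Other transporters of the mitochondrial membranes, outside the SLC25 names, were higher in 8 and lower in 3 of 22 tested, 11 calls in all. The share called was near the 51.6% of all tested genes. The calcium uniporter gave calls in both directions. SMDT1 (EMRE), the small subunit that the human uniporter needs to conduct, had 26.9, 29.2 and 25.4 TPM in siAHCYL1, against 11.4, 12.0 and 13.4 TPM in siNC libraries (1.09, SE 0.098, adjusted p = 2.47e-05). MCU, the pore itself, had 20.3, 18.6 and 18.9 TPM in siAHCYL1, against 31.8, 28.4 and 30.0 TPM in siNC libraries (-0.62, SE 0.085, adjusted p = 0.000315). Each group lay clear of the other for both genes, in opposite directions. MICU3, a gatekeeper of the uniporter named after its value was seen, was lower (-0.56, adjusted p = 0.00415), and so was MTCH1, likewise named afterwards (-0.23, adjusted p = 0.0157). All 3 falls are named here, but not all of the 8 rises. The sideroflexins SFXN5 (0.78, adjusted p = 6.45e-05) and SFXN3 (0.48, adjusted p = 0.000886), of a family that carries serine into mitochondria, were higher. Their relatives SFXN1 (-0.087, adjusted p = 0.373), SFXN2 (0.27, adjusted p = 0.072) and SFXN4 (0.13, adjusted p = 0.286) were not called. SFXN1 was the most abundant of the family, at 68.2 TPM in siAHCYL1 and 72.5 TPM in siNC cells.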

How the data were processed

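RNA from 3 siAHCYL1 and 3 siNC libraries of HMCB cells was made into non-directional libraries, per the labels' protocols, so a gene and an overlapping gene on the other strand cannot be told apart. The authors deposited 1 table of TPM per gene symbol. The submitters' processing notes name GRCh38, STAR and RSEM, with versions and annotation not given in the sources used here. Columns with the prefix si were assigned to siAHCYL1 as the one group left once nc was matched to siNC.

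The groups were compared on log2(TPM + 1) by the two-sided moderated test of limma 3.58.1 (R 4.3.3) with a trend over intensity. Adjustment was by Benjamini-Hochberg over the 13266 genes that reached 1 TPM in 3 or more libraries. The fit was tested on simulated data first. Per-library values were given for AHCYL1, for changed members of at least 0.5 log2 units and 5 TPM, for the most abundant member of each role class, and for others where their libraries bear on the call. From each partner list up to 4 changed genes of smallest adjusted p were named. The values of 1 tested member and 1 marker gene, which enter the counts and sums, are among those not reported here. The rule for the members uses no expression value, but it and the lists were chosen with earlier results of these data known. Alternatives were quantile normalization, median-of-ratios scaling, a filter at 5 TPM or none, a pseudocount of 0.1, robust moderation without the trend, a replicate block, and leaving out each library. Chosen after seeing the data were replicate 1 of both groups left out and the trend over transcript length removed. Positions, lengths and shared 50-base stretches are from GENCODE v29 (GRCh38), and promoters from RefSeq (GRCh38.p14).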

Additional observations from a re-analysis of the deposited data

How the results depend on the processing

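TPM keep no depth, so what depth limits cannot be told, and small differences rest on the spread of 3 libraries a group. No called member changed direction in any of the 15 other fits, and 8 of the 28 lost their call in some, each named with its value in the report. The number of lower members was 21 under quantile normalization, against 13. The median log2 fold change of the members was 0.065, 0.001 under median-of-ratios scaling, -0.031 under quantile normalization, 0.046 without replicate 1 of both groups and -0.015 with the trend over transcript length removed, and 0.032 to 0.078 with 1 library left out. These scalings moved the median of all genes from 0.063 to between -0.014 and 0.004, less than 0.1. The cause was not tested. The import partners called were 8, 14 with the replicate block, 4 without replicate 1 of both groups and 5 to 8 with 1 library left out. SLC25A6 changed sign, without a call, under median-of-ratios scaling (-0.057), with the length trend removed (-0.066), and with 1 library left out (-0.015 without siAHCYL1 replicate 2 and -0.012 without siNC replicate 1, range -0.015 to 0.037). SLC25A39 did so under median-of-ratios scaling (-0.005), under quantile normalization (-0.038) and with the length trend removed (-0.016).

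The replicate numbers are in the labels. Deviations of same-numbered libraries correlated at 0.233, 0.001 and 0.154 for replicates 1, 2 and 3, against -0.256 to 0.153 between unlike numbers. The numbers were not taken as pairs in the main fit. With the replicate block 7919 genes were called, against 6844, and 21 members were higher and 15 lower. All 28 called members stayed called, and TOMM7 was among the 8 that passed in addition (0.26, adjusted p = 0.00996).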
